A study of Mus musculus with 12 samples.

Results

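The genes described here are the solute carriers expressed in cultured mouse CD8 T cells. They were chosen by the measured group means, which bears on every comparison below. A member is a protein-coding gene with a symbol of the form Slc, number, letter, number. Its mean had to be at least 5 CPM, which is its count scaled to the library total, in at least 1 of 4 groups. Of 370 protein-coding genes with such a symbol, 171 met the criteria. Another 161 had counts but stayed under the minimum, and 38 had none in any library. The members comprised 34 mitochondrial and related carriers of the SLC25 family, 26 carriers of nucleosides, nucleotides and nucleotide sugars, 25 of ions, protons and phosphate, 24 of amino acids and peptides, 24 of metals, 20 of vitamins, lipids and other substrates, 11 of sugars and 4 of the monocarboxylate family. The other 3 members, Slc9a3r1, Slc7a6os and Slc4a1ap, have matching symbols but encode proteins that are not carriers.

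RNA came from splenic CD8 T cells of OT-I mice on the C57BL/6 background, whose T cells carry a transgenic receptor for an ovalbumin peptide. The 4 groups were Batf3 stimulated, Batf3 non-stimulated, control stimulated and control non-stimulated cells, with 3 libraries each. All cells had been transduced with a retroviral vector, which carried Batf3 or was empty (control), and were sorted for transduction. A culture of 6 h followed. Stimulated cells received anti-CD3e bound to the plate together with anti-CD28, 1 µg/ml of either antibody. Non-stimulated cells received IL-15 (100 ng/ml), which is not named for the stimulated cultures. Loss of IL-15 and gain of the antibodies therefore cannot be told apart. The replicates are described as technical, so that the SDs, SEs and p-values below measure technical spread and not the spread between mice or transductions. BATF3 is a basic leucine zipper factor of the AP-1 family.

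Total counts lay between 14211564 and 14468231 per library. Batf3 itself was at 434, 413 and 433 CPM in Batf3 stimulated cells and at 474, 467 and 468 CPM in Batf3 non-stimulated cells, against 18.3, 19.1 and 17.7 CPM in control stimulated and 7.43, 5.83 and 7.02 CPM in control non-stimulated cells, so every library matched its vector label. Here and below, CPM are scaled by TMM factors and given in library order 1 to 3, except for the cell type markers that follow. The markers are given as group means of CPM by library totals. A set of 6 markers of CD8 T cells summed to means of 1400, 2090, 1210 and 2080 CPM in Batf3 stimulated, Batf3 non-stimulated, control stimulated and control non-stimulated cells, while Cd4 stayed at or under 0.304 CPM in each. A list of 6 myeloid and dendritic markers summed to 48.7, 29.8, 20.6 and 18.3 CPM in the same order. Nearly all of this came from Itgax, at 41.4, 17.2, 16.2 and 8.67 CPM, and Xcr1, at 6.73, 12.2, 4.03 and 9.53 CPM, while Lyz2 had no counts in any group. The part of these markers in the vector comparisons was not tested.

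Solute carriers are membrane proteins that move amino acids, sugars, lactate, metals, nucleosides, vitamins and ions across the plasma membrane and the membranes of organelles. The SLC25 family sits mainly in the inner mitochondrial membrane and links the matrix to cytosolic metabolism. A T cell that is activated through its receptor grows and prepares to divide, and the uptake of glutamine, leucine and other neutral amino acids is a well-known requirement of that growth.

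The family took a larger share of the transcriptome in stimulated cells. The members held 1.09% ± 0.0153 of all counts in Batf3 stimulated cells and 0.708% ± 0.00508 in Batf3 non-stimulated cells, and 1.13% ± 0.00685 in control stimulated against 0.717% ± 0.00355 in control non-stimulated cells (SD, n = 3). In bulk RNA, fewer cells of a type and less RNA per cell cannot be told apart. Amino acid and peptide carriers accounted for most of the difference: their summed level was 4929 ± 72.5 CPM in Batf3 stimulated and 1397 ± 11.4 CPM in Batf3 non-stimulated cells, against 5454 ± 68.9 CPM in control stimulated and 1556 ± 20.9 CPM in control non-stimulated cells. The sum over all members was 11508 ± 129 CPM in Batf3 stimulated and 6447 ± 35.4 CPM in Batf3 non-stimulated cells, and 12327 ± 72.4 CPM in control stimulated and 6876 ± 37.7 CPM in control non-stimulated cells. Sums of the sugar carriers differed least between cultures, at 334 ± 1.79 CPM in Batf3 stimulated and 302 ± 4.90 CPM in Batf3 non-stimulated cells, and at 316 ± 1.53 CPM in control stimulated and 315 ± 4.10 CPM in control non-stimulated cells.

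**Figure D1:**
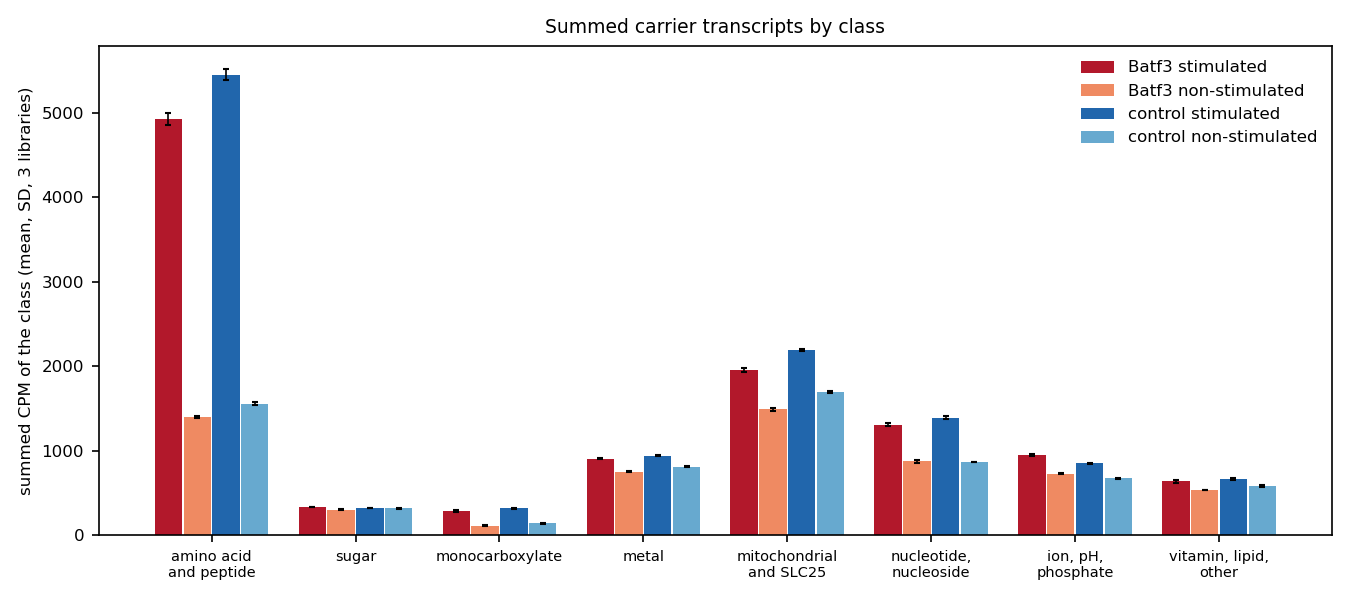
Summed CPM of the members of each of 8 carrier classes (vertical axis) in the 4 groups, as the mean of 3 libraries with SD bars. The amino acid class stands at 4929 and 5454 CPM in Batf3 and control stimulated cells and at 1397 and 1556 CPM in Batf3 and control non-stimulated cells, while the sugar class lies between 302 and 334 CPM in all 4.

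Tests were made with edgeR's quasi-likelihood method over 15702 genes, and a gene was called at a Benjamini-Hochberg adjusted p under 0.05. Because the minimum of 5 CPM in any 1 group favours genes that differ between groups, counts of calls run over the 159 members whose mean over all 12 libraries was at least 5 CPM. They are set beside the 9339 tested protein-coding genes with such a mean. On stimulation of Batf3 cells, 81 of the 159 members rose and 63 fell, with a median log2 change of 0.24. Of the 9339 genes 43.9% rose, 45.9% fell and 89.8% did either, with a median of −0.03. On stimulation of control cells, 82 members rose and 61 fell, with a median of 0.20, against 42.5% up, 45.9% down and 88.4% in either direction among the 9339 genes (median −0.04). The 3 libraries of each culture did not overlap for 146 members in Batf3 and 144 in control cells, where the background was 89.7% in Batf3 and 89% in control cells. Most genes of this level were called in each vector, and the members were close to that background. A log2 change of at least 1 was reached by 41 rising and 33 falling members in Batf3 cells, and by 38 rising and 36 falling members in control cells. This count was not made over the 9339 genes, so it has no background here. Without TMM scaling, the median stimulation effect over all tested genes shifted by −0.22 in Batf3 and −0.19 in control cells. With library sizes alone, 75 members rose and 72 fell in Batf3 cells, and 74 rose and 70 fell in control cells, so the excess of rises depended on scaling.

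**Figure D2:**
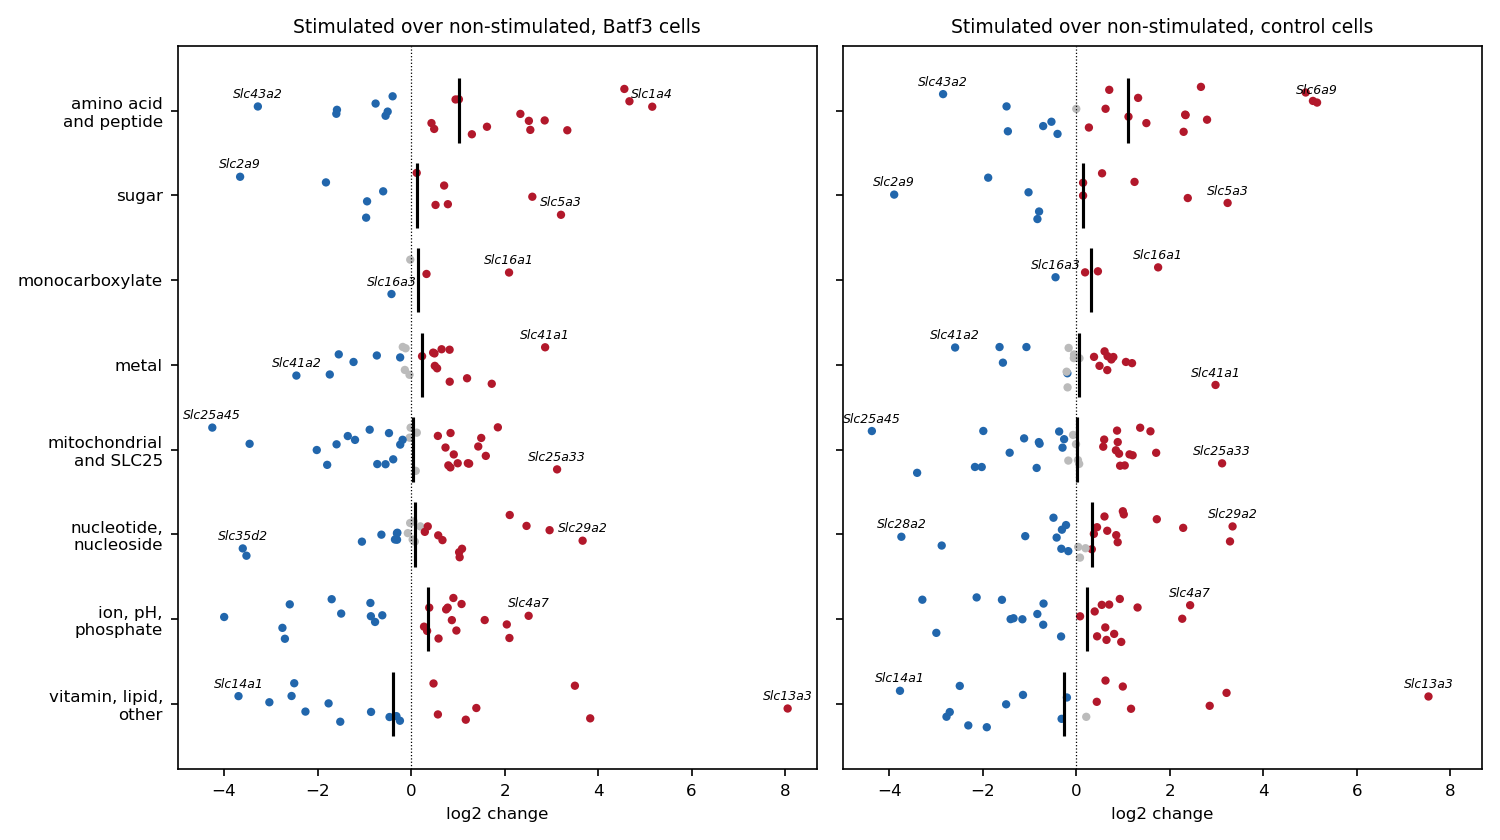
Log2 change on stimulation (horizontal axis) of the carriers with a 12-library mean of at least 5 CPM, by class (rows), in Batf3 cells (left) and control cells (right); the 3 members that are not carriers are left out. Red points were called higher, blue lower and grey neither, black bars are class medians, and height within a row has no meaning. Amino acid carriers reach log2 changes near 5 at the upper end. At the lower end the SLC25 class passes −4, with Slc25a45 at −4.25 in Batf3 and −4.37 in control cells. The point of Slc13a3 beyond 7 is a fitted value that rests on 2 counts in each non-stimulated group.

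Amino acid carriers had the highest median rise on stimulation among the classes of more than 4 members. Of 21, 14 rose and 7 fell on stimulation of Batf3 cells (median log2 change 1.02), and 14 rose and 6 fell in control cells (median 1.11). Against this, 43.9% of the 9339 genes rose and 45.9% fell in Batf3 cells, and 42.5% rose and 45.9% fell in control cells. The sum of this class was concentrated in 5 genes, Slc1a5, Slc7a5, Slc3a2, Slc38a1 and Slc7a1, which held 76.6% of it in Batf3 stimulated and 51.7% in Batf3 non-stimulated cells, and 74.7% in control stimulated and 55.0% in control non-stimulated cells. Per kilobase of exon, Slc1a5, Slc7a5 and Slc3a2 averaged 168, 143 and 126 CPM per kb over the 12 libraries, below Slc25a5 at 301 CPM per kb.

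Slc7a5 encodes the large neutral amino acid transporter that imports leucine and other essential amino acids. It was at 791, 808 and 842 CPM in Batf3 stimulated cells and 115, 109 and 113 CPM in Batf3 non-stimulated cells. The control libraries were at 1024, 1045 and 1060.1 CPM with stimulation and 155, 146 and 149.8 CPM without it. Stimulated libraries lay far above non-stimulated ones, and within each culture all 3 Batf3 libraries lay below all 3 control libraries. The log2 change on stimulation was 2.86 ± 0.04, adjusted p = 1.40e-63 in Batf3 cells and 2.79 ± 0.04, adjusted p = 1.13e-63 in control cells. With Batf3 it fell by 0.36 ± 0.03 on the log2 scale in stimulated cells (adjusted p = 5.95e-18) and by 0.42 ± 0.04 in non-stimulated cells (adjusted p = 3.40e-17). Its heavy chain partner Slc3a2, which carries the transporter to the cell surface, was at 683, 678 and 698 CPM in Batf3 stimulated cells and 141, 131 and 136 CPM in Batf3 non-stimulated cells. Values in control cells were 802, 789 and 806 CPM with stimulation and 162, 158 and 158 CPM without it. The libraries were ordered in the same way, and the log2 effect of Batf3 was −0.22 ± 0.03, adjusted p = 2.74e-10 in stimulated cells and −0.23 ± 0.04, adjusted p = 6.37e-09 in non-stimulated cells.

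Slc1a5, an exchanger of glutamine and other neutral amino acids, was at 1169, 1154 and 1203 CPM in Batf3 stimulated cells and 205, 199 and 198 CPM in Batf3 non-stimulated cells. Control cells were at 1175, 1166 and 1201 CPM with stimulation and 250.1, 228 and 244 CPM without it. The stimulated libraries of both vectors overlapped, whereas in non-stimulated cells every Batf3 library lay below every control library. The log2 effect of Batf3 was −0.01 ± 0.03, adjusted p = 0.887, in stimulated and −0.26 ± 0.04, adjusted p = 2.61e-11, in non-stimulated cells. Slc38a1, a sodium-coupled importer of glutamine and other neutral amino acids, was at 552, 551 and 535 CPM in Batf3 stimulated cells and 176, 178 and 179 CPM in Batf3 non-stimulated cells. In control cells, values were 478, 470.1 and 497 CPM with stimulation and 197, 191 and 191 CPM without it. In this gene the Batf3 libraries lay above the control libraries after stimulation (0.18 ± 0.04, adjusted p = 2.17e-07) and below them without it (−0.12 ± 0.04, adjusted p = 0.000875), a call that was lost with library sizes alone. The cationic amino acid carrier Slc7a1, which imports arginine and lysine, averaged 555 ± 11.6 CPM in Batf3 stimulated cells, 96.8 ± 0.741 CPM in Batf3 non-stimulated cells, 572 ± 10.7 CPM in control stimulated cells and 113 ± 1.30 CPM in control non-stimulated cells.

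The steepest rises of the class were found in 3 carriers that were scarce before stimulation. Slc1a4, a carrier of alanine, serine and cysteine, was at 143, 151 and 155 CPM in Batf3 stimulated cells and 3.89, 4.55 and 4.10 CPM in Batf3 non-stimulated cells. Control levels were 144, 152 and 152 CPM with stimulation and 5.31, 5.11 and 4.51 CPM without it. Both vectors overlapped in both cultures, and the log2 change on stimulation was 5.16 ± 0.11, adjusted p = 5.37e-58 in Batf3 and 4.90 ± 0.10, adjusted p = 2.78e-57 in control cells. Slc7a3, a second carrier of cationic amino acids, was at 35.5, 41.2 and 36.4 CPM in Batf3 stimulated cells and 1.28, 1.86 and 1.28 CPM in Batf3 non-stimulated cells. The control values were 87.2, 90.0 and 86.8 CPM with stimulation and 2.19, 2.39 and 3.31 CPM without it. Batf3 libraries lay below control libraries after stimulation, with a log2 effect of −1.22 ± 0.06, adjusted p = 5.26e-26, and lower without it, at −0.83 ± 0.22, adjusted p = 0.00136. Slc6a9, the glycine transporter, was at 33.5, 33.1 and 33.7 CPM in Batf3 stimulated cells and 1.40, 1.67 and 1.15 CPM in Batf3 non-stimulated cells. Levels in control cells were 58.5, 64.6 and 61.2 CPM with stimulation and 1.99, 1.59 and 1.59 CPM without it. All Batf3 stimulated libraries lay below all control stimulated libraries (−0.88 ± 0.07, adjusted p = 1.77e-18). Of the exon bases of Slc6a9, 30.2% also belong to Ccdc24 on the opposite strand, and the sources used here do not say whether counting used strand.

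Slc6a6, which imports taurine, was at 187, 185 and 185 CPM in Batf3 stimulated cells and 91.7, 93.6 and 89.0 CPM in Batf3 non-stimulated cells. The controls were at 317, 308 and 321 CPM with stimulation and 113, 111 and 111 CPM without it. Each of the 4 groups was separate from the others, and the rise on stimulation was smaller with Batf3: 1.02 ± 0.04, adjusted p = 1.06e-35, in Batf3 cells against 1.497 ± 0.04, adjusted p = 7.34e-46, in control cells, an interaction of −0.47 ± 0.06, adjusted p = 6.05e-12. Slc16a10, which carries aromatic amino acids, was also lower with Batf3, at 7.56 ± 1.33 CPM in Batf3 stimulated against 13.1 ± 1.66 CPM in control stimulated cells (−0.79 ± 0.12, adjusted p = 1.92e-07).

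Some amino acid carriers went the other way on stimulation. Slc43a2, a facilitative carrier of large neutral amino acids, was at 4.24, 3.93 and 5.02 CPM in Batf3 stimulated cells and 42.1, 46.7 and 39.2 CPM in Batf3 non-stimulated cells. The control libraries were at 4.34, 4.34 and 4.87 CPM with stimulation and 33.7, 32.95 and 31.2 CPM without it. It fell in both vectors, with log2 changes of −3.28 ± 0.12, adjusted p = 9.62e-39 in Batf3 and −2.85 ± 0.12, adjusted p = 2.47e-34 in control cells. Slc7a11, which exchanges cystine for glutamate, averaged 40.4 ± 3.61 CPM in Batf3 stimulated cells, 68.3 ± 2.37 CPM in Batf3 non-stimulated cells, 51.1 ± 1.05 CPM in control stimulated cells and 73.9 ± 8.21 CPM in control non-stimulated cells, and also fell in both vectors. A pair of lysosomal members also fell on stimulation. Slc36a1, a proton-coupled amino acid carrier of lysosomes, averaged 10.1 ± 1.13 CPM in Batf3 stimulated cells, 30.4 ± 2.59 CPM in Batf3 non-stimulated cells, 7.59 ± 0.998 CPM in control stimulated cells and 21.4 ± 0.365 CPM in control non-stimulated cells. Its Batf3 effect was 0.40 ± 0.12, adjusted p = 0.00681 in stimulated and 0.51 ± 0.08, adjusted p = 1.15e-07 in non-stimulated cells, and the first call fell away without replicate 1 of control stimulated cells (adjusted p = 0.0877). Slc38a9, the lysosomal arginine sensor that signals to the growth-regulating kinase mTOR, averaged 7.78 ± 1.33 CPM in Batf3 stimulated cells, 23.4 ± 0.684 CPM in Batf3 non-stimulated cells, 6.37 ± 0.483 CPM in control stimulated cells and 17.6 ± 0.949 CPM in control non-stimulated cells, with a Batf3 effect of 0.41 ± 0.08, adjusted p = 4.91e-05 in non-stimulated cells. In stimulated cells the effect was 0.29 ± 0.13, adjusted p = 0.0931. It passed the threshold without Batf3 stimulated replicate 2 (adjusted p = 0.0494) and with library sizes alone (adjusted p = 0.0474).

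**Figure D3:**
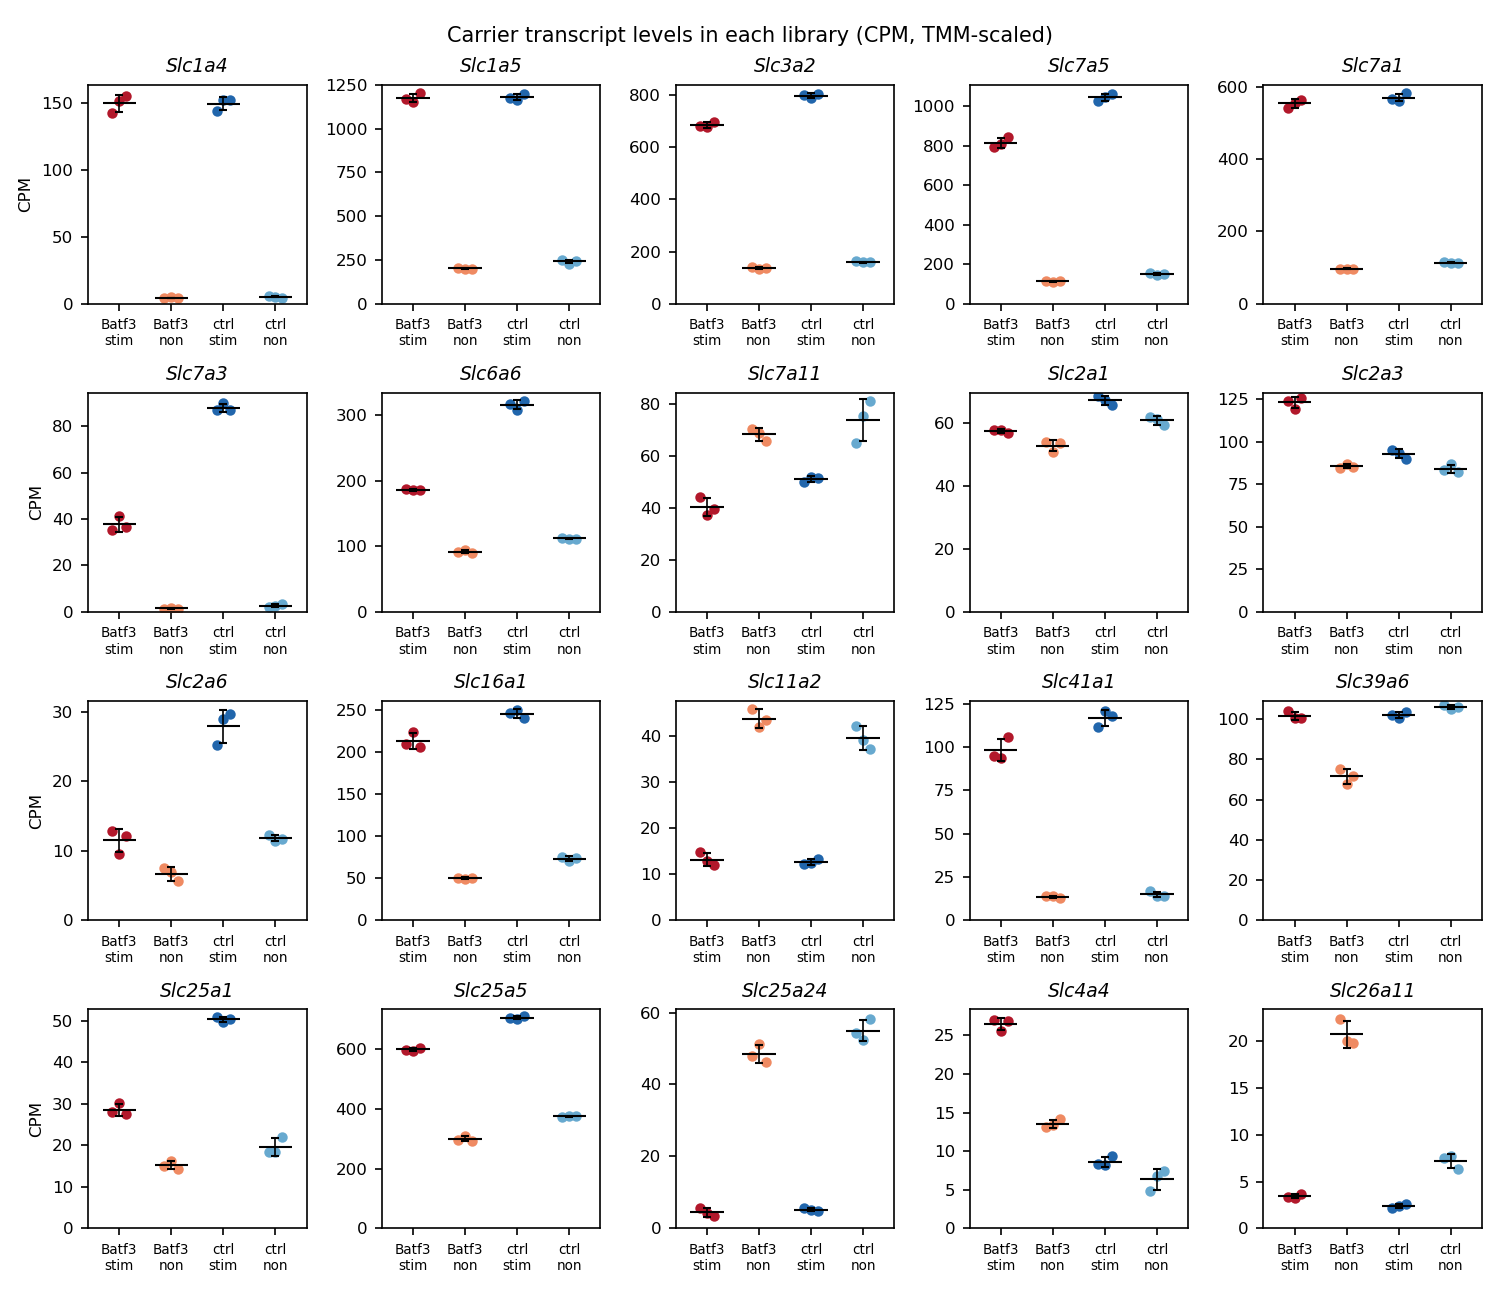
TMM-scaled CPM (vertical axes, from 0) of selected carriers in each library, in the order Batf3 stimulated, Batf3 non-stimulated, control stimulated and control non-stimulated, with points for libraries, lines for means and bars for SDs. Slc7a5 spans 109 to 1060.1 CPM, while Slc2a1 spans 50.7 to 68.7 CPM over the same 12 libraries.

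The main glucose carriers had small log2 changes on stimulation beside those of the amino acid carriers. Slc2a1, the basal glucose transporter of most cells, was at 57.8, 57.6 and 56.8 CPM in Batf3 stimulated cells and 54.0, 50.7 and 53.7 CPM in Batf3 non-stimulated cells. Values in control cells were 68.7, 67.3 and 65.7 CPM with stimulation and 62.0, 61.2 and 59.4 CPM without it. Batf3 libraries lay below control libraries in both cultures, with log2 effects of −0.23 ± 0.05, adjusted p = 0.000169 in stimulated and −0.20 ± 0.05, adjusted p = 0.000414 in non-stimulated cells. Its log2 change on stimulation was 0.12 ± 0.05, adjusted p = 0.0224 in Batf3 and 0.14 ± 0.05, adjusted p = 0.00541 in control cells, and these turned to −0.094 in Batf3 and −0.042 in control cells when only library sizes were used for scaling. In Batf3 cells the call was also lost without Batf3 non-stimulated replicate 2 (adjusted p = 0.178), Batf3 stimulated replicate 1 (adjusted p = 0.150) or Batf3 stimulated replicate 2 (adjusted p = 0.155). That call was likewise lost with DESeq2 (adjusted p = 0.0783) and without the filter on low counts (adjusted p = 0.288). Slc2a3, a glucose transporter of high affinity, was at 124, 119 and 126 CPM in Batf3 stimulated cells and 84.7, 87.2 and 85.1 CPM in Batf3 non-stimulated cells. Control cells were at 95.1, 93.5 and 90.0 CPM with stimulation and 83.3, 86.6 and 82.3 CPM without it. Batf3 stimulated libraries lay above control stimulated libraries, which lay above the non-stimulated libraries of both vectors. The stimulation effect was 0.52 ± 0.05, adjusted p = 1.53e-18 in Batf3 cells and 0.14 ± 0.05, adjusted p = 0.00154 in control cells, where it turned to −0.042 with library sizes alone, and the interaction was 0.38 ± 0.07, adjusted p = 4.43e-07.

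Slc2a6, a hexose transporter of lysosomes, was at 12.8, 9.57 and 12.1 CPM in Batf3 stimulated cells and 7.46, 6.92 and 5.58 CPM in Batf3 non-stimulated cells. In control cells, values were 25.2, 28.96 and 29.6 CPM with stimulation and 12.2, 11.4 and 11.7 CPM without it. Batf3 libraries were lower in both cultures, with log2 effects of −1.28 ± 0.10, adjusted p = 1.49e-17 in stimulated and −0.82 ± 0.12, adjusted p = 3.16e-08 in non-stimulated cells. The first was the largest fall with Batf3 among the members in stimulated cells. Slc5a3, which imports myo-inositol, averaged 46.9 ± 2.12 CPM in Batf3 stimulated cells, 5.07 ± 0.571 CPM in Batf3 non-stimulated cells, 34.2 ± 1.30 CPM in control stimulated cells and 3.63 ± 0.956 CPM in control non-stimulated cells. It rose on stimulation in both vectors (3.21 ± 0.11 in Batf3 and 3.23 ± 0.13 in control cells) and was higher with Batf3 in stimulated cells (0.46 ± 0.07, adjusted p = 2.31e-07). In non-stimulated cells the Batf3 effect of 0.48 ± 0.16, adjusted p = 0.00932, was lost without control non-stimulated replicate 1 (adjusted p = 0.178). Slc2a9, known as a urate carrier, averaged 0.717 ± 0.156 CPM in Batf3 stimulated cells, 9.13 ± 1.20 CPM in Batf3 non-stimulated cells, 0.736 ± 0.116 CPM in control stimulated cells and 11.1 ± 1.15 CPM in control non-stimulated cells, and Slc37a4, the glucose-6-phosphate carrier of the endoplasmic reticulum, averaged 9.19 ± 1.58 CPM in Batf3 stimulated cells, 17.9 ± 1.02 CPM in Batf3 non-stimulated cells, 9.12 ± 0.923 CPM in control stimulated cells and 18.5 ± 0.527 CPM in control non-stimulated cells. Both fell on stimulation in each vector.

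The monocarboxylate carrier Slc16a1, which moves lactate and pyruvate with protons, was at 209, 224 and 206 CPM in Batf3 stimulated cells and 50.3, 48.8 and 50.4 CPM in Batf3 non-stimulated cells. Control levels were 246, 249.997 and 240.4 CPM with stimulation and 74.9, 70.1 and 74.1 CPM without it. All Batf3 libraries lay below all control libraries of the same culture, with log2 effects of −0.21 ± 0.04, adjusted p = 2.13e-06 in stimulated and −0.55 ± 0.05, adjusted p = 2.85e-16 in non-stimulated cells. The rise on stimulation was larger in Batf3 cells (2.10 ± 0.05) than in control cells (1.75 ± 0.04; interaction 0.35 ± 0.06, adjusted p = 2.03e-06). Slc16a3, the lactate exporter associated with high glycolysis, was at 5.28, 5.12 and 6.34 CPM in Batf3 stimulated cells and 6.95, 7.05 and 8.40 CPM in Batf3 non-stimulated cells. The control values were 5.10, 5.11 and 5.18 CPM with stimulation and 5.91, 6.76 and 8.28 CPM without it. It was low in every library and fell on stimulation, with log2 changes of −0.42 ± 0.14, adjusted p = 0.00613 in Batf3 and −0.45 ± 0.15, adjusted p = 0.00537 in control cells, and the second was lost without control non-stimulated replicate 3 (adjusted p = 0.0737). The chaperones of these carriers moved apart: Bsg averaged 159 ± 3.30 CPM in Batf3 stimulated cells, 117 ± 1.14 CPM in Batf3 non-stimulated cells, 170.4 ± 5.56 CPM in control stimulated cells and 123 ± 3.29 CPM in control non-stimulated cells, and Emb averaged 51.5 ± 1.06 CPM in Batf3 stimulated cells, 267 ± 5.51 CPM in Batf3 non-stimulated cells, 57.0 ± 1.46 CPM in control stimulated cells and 263 ± 2.90 CPM in control non-stimulated cells.

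Among 21 metal carriers, 11 rose and 6 fell on stimulation of Batf3 cells, and 10 rose and 5 fell in control cells. The background was 43.9% up and 45.9% down in Batf3 cells, and 42.5% up and 45.9% down in control cells. With library sizes alone 10 rose and 10 fell in each vector. The magnesium carriers Slc41a1 and Slc41a2 moved in opposite directions. Slc41a1 was at 95.2, 94.0 and 106 CPM in Batf3 stimulated cells and 13.8, 13.8 and 12.9 CPM in Batf3 non-stimulated cells. Levels in control cells were 112, 121 and 118 CPM with stimulation and 16.7, 14.1 and 13.7 CPM without it. The log2 change on stimulation was 2.87 ± 0.07, adjusted p = 6.38e-46 in Batf3 and 2.98 ± 0.07, adjusted p = 1.95e-47 in control cells. Slc41a2 was at 2.08, 2.74 and 1.33 CPM in Batf3 stimulated cells and 10.4, 12.6 and 10.8 CPM in Batf3 non-stimulated cells. The controls were at 1.07, 1.14 and 0.838 CPM with stimulation and 7.37, 5.30 and 5.83 CPM without it. It fell on stimulation in both vectors and was higher with Batf3 in both cultures, with log2 effects of 0.87 ± 0.14, adjusted p = 2.63e-07 in non-stimulated and 1.01 ± 0.31, adjusted p = 0.0061 in stimulated cells. The second was lost without Batf3 stimulated replicate 2 (adjusted p = 0.0996), and Batf3 stimulated replicate 3 was at 1.33 CPM, close to control stimulated libraries.

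Slc11a2, the proton-coupled importer of iron and other divalent metals, was at 14.7, 12.8 and 11.9 CPM in Batf3 stimulated cells and 45.9, 41.9 and 43.5 CPM in Batf3 non-stimulated cells. The control libraries were at 12.3, 12.3 and 13.3 CPM with stimulation and 42.3, 39.1 and 37.1 CPM without it. Every stimulated library lay below every non-stimulated library, with log2 changes of −1.74 ± 0.08, adjusted p = 5.46e-30 in Batf3 and −1.64 ± 0.08, adjusted p = 5.64e-28 in control cells. The transferrin receptor gene Tfrc, which brings in most iron of dividing cells, went the opposite way, with log2 changes of 2.64 in Batf3 and 2.54 in control cells. The lysosomal heme carrier Slc48a1 fell in both vectors (−1.23 ± 0.08 in Batf3 and −1.07 ± 0.08 in control cells), whereas the copper importer Slc31a1 rose (0.82 ± 0.08 in Batf3 and 0.75 ± 0.07 in control cells).

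The zinc carriers were divided. Slc39a14, an importer of zinc, manganese and non-transferrin iron, was at 116, 122 and 123 CPM in Batf3 stimulated cells and 36.8, 36.6 and 35.8 CPM in Batf3 non-stimulated cells. Values in control cells were 108, 106 and 105 CPM with stimulation and 44.97, 48.1 and 46.8 CPM without it. It was higher with Batf3 in stimulated cells (0.18 ± 0.05, adjusted p = 0.000454) and lower in non-stimulated cells (−0.36 ± 0.06, adjusted p = 4.87e-08), with no overlap of libraries in either culture. Slc39a6, a zinc importer, was at 104, 101 and 101 CPM in Batf3 stimulated cells and 75.2, 67.7 and 71.7 CPM in Batf3 non-stimulated cells. Control cells were at 102, 101 and 104 CPM with stimulation and 107, 105 and 106 CPM without it. Here the Batf3 non-stimulated libraries alone were low, with a Batf3 effect of −0.57 ± 0.05, adjusted p = 4.85e-18, and an interaction of 0.56 ± 0.07, adjusted p = 1.10e-11. Of the carriers that move zinc out of the cytosol, Slc30a5 rose on stimulation (1.20 ± 0.05 in Batf3 and 1.06 ± 0.05 in control cells) and Slc30a4 fell (−1.55 ± 0.05 in Batf3 and −1.57 ± 0.05 in control cells). The zinc-binding metallothionein Mt1 averaged 36.1 ± 3.90 CPM in Batf3 stimulated cells, 31.98 ± 2.19 CPM in Batf3 non-stimulated cells, 40.9 ± 1.93 CPM in control stimulated cells and 27.9 ± 0.139 CPM in control non-stimulated cells.

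The mitochondrial carriers rose and fell in like numbers on stimulation, with 14 of 32 higher and 14 lower in Batf3 cells and 14 higher and 13 lower in control cells. These shares were close to the background of 43.9% higher and 45.9% lower in Batf3 cells, and 42.5% higher and 45.9% lower in control cells. The most abundant member per kilobase, Slc25a5, exchanges ADP for ATP across the inner membrane. It was at 599, 593 and 605 CPM in Batf3 stimulated cells and 297, 310.1 and 293 CPM in Batf3 non-stimulated cells. In control cells, values were 706, 700.4 and 713 CPM with stimulation and 373, 377 and 375 CPM without it. Its log2 change on stimulation was 0.998 ± 0.04, adjusted p = 1.02e-41 in Batf3 and 0.91 ± 0.03, adjusted p = 6.13e-40 in control cells, and Batf3 libraries were lower in both cultures. Its paralog Slc25a4 fell on stimulation and averaged 85.0 ± 3.54 CPM in Batf3 stimulated cells, 111 ± 2.39 CPM in Batf3 non-stimulated cells, 93.6 ± 2.17 CPM in control stimulated cells and 121 ± 4.77 CPM in control non-stimulated cells. Both genes share long stretches of sequence with each other and with processed pseudogenes, and the sources used here do not say how reads with several matches were counted. The phosphate carrier Slc25a3 averaged 401 ± 13.6 CPM in Batf3 stimulated cells, 269 ± 5.11 CPM in Batf3 non-stimulated cells, 448 ± 8.01 CPM in control stimulated cells and 301 ± 6.88 CPM in control non-stimulated cells.

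Slc25a1, which exports citrate from the matrix, was at 28.1, 30.2 and 27.5 CPM in Batf3 stimulated cells and 15.0, 16.2 and 14.3 CPM in Batf3 non-stimulated cells. Control levels were 50.9, 49.8 and 50.5 CPM with stimulation and 18.3, 18.4 and 21.998 CPM without it. Batf3 stimulated libraries lay well below control stimulated libraries (−0.82 ± 0.07, adjusted p = 3.38e-16), the effect in non-stimulated cells was −0.37 ± 0.08, adjusted p = 0.000203, and the interaction was −0.45 ± 0.11, adjusted p = 0.00082. Slc25a22, a mitochondrial glutamate carrier, was at 73.4, 77.4 and 82.4 CPM in Batf3 stimulated cells and 77.8, 76.1 and 80.8 CPM in Batf3 non-stimulated cells. The control values were 96.2, 100.3 and 101 CPM with stimulation and 121, 118 and 117 CPM without it. Batf3 libraries were lower in both cultures, with log2 effects of −0.35 ± 0.05, adjusted p = 1.17e-09 in stimulated and −0.61 ± 0.05, adjusted p = 3.16e-19 in non-stimulated cells. Both aspartate-glutamate carriers of the malate-aspartate shuttle were measured. Slc25a13 averaged 10.7 ± 0.576 CPM in Batf3 stimulated cells, 3.77 ± 0.441 CPM in Batf3 non-stimulated cells, 13.9 ± 0.805 CPM in control stimulated cells and 6.30 ± 0.653 CPM in control non-stimulated cells, and rose on stimulation. Slc25a12 averaged 10.99 ± 1.28 CPM in Batf3 stimulated cells, 38.1 ± 1.99 CPM in Batf3 non-stimulated cells, 11.1 ± 1.97 CPM in control stimulated cells and 44.1 ± 1.93 CPM in control non-stimulated cells, and fell.

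The deepest falls on stimulation included 2 members of this family. Slc25a45 was at 2.16, 2.52 and 2.29 CPM in Batf3 stimulated cells and 42.3, 45.2 and 45.5 CPM in Batf3 non-stimulated cells. Levels in control cells were 1.98, 2.13 and 1.52 CPM with stimulation and 40.2, 37.7 and 39.4 CPM without it. Its log2 change was −4.25 ± 0.16, adjusted p = 4.96e-43 in Batf3 and −4.37 ± 0.18, adjusted p = 7.50e-42 in control cells. Slc25a24, which exchanges ATP-magnesium for phosphate, averaged 4.43 ± 1.22 CPM in Batf3 stimulated cells, 48.5 ± 2.52 CPM in Batf3 non-stimulated cells, 5.18 ± 0.380 CPM in control stimulated cells and 54.9 ± 2.95 CPM in control non-stimulated cells. In contrast Slc25a33, a carrier of pyrimidine nucleotides, rose by log2 changes of 3.12 ± 0.14 in Batf3 and 3.12 ± 0.13 in control cells, and the folate carrier Slc25a32 by 1.60 ± 0.06 in Batf3 and 1.58 ± 0.06 in control cells. The iron carriers of mitochondria went opposite ways: Slc25a37 rose (1.21 ± 0.06 in Batf3 and 1.03 ± 0.06 in control cells) and Slc25a28 fell (−1.35 ± 0.08 in Batf3 and −1.43 ± 0.07 in control cells).

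Carriers of nucleosides and folate showed large responses in both directions. The equilibrative nucleoside carriers Slc29a1, Slc29a2 and Slc29a3 all rose: in Batf3 cells by 2.47 ± 0.05, 3.67 ± 0.16 and 2.96 ± 0.06 on the log2 scale, and in control cells by 2.28 ± 0.05, 3.34 ± 0.14 and 3.29 ± 0.06. Slc28a2, a sodium-coupled importer of purine nucleosides, was at 12.5, 13.3 and 10.5 CPM in Batf3 stimulated cells and 142, 133 and 143 CPM in Batf3 non-stimulated cells. The controls were at 7.77, 7.70 and 10.1 CPM with stimulation and 115, 115 and 113 CPM without it. It fell in both vectors, with log2 changes of −3.52 ± 0.08, adjusted p = 2.30e-51 in Batf3 and −3.74 ± 0.09, adjusted p = 2.27e-50 in control cells, and was higher with Batf3 in both cultures (0.50 ± 0.11 in stimulated and 0.28 ± 0.04 in non-stimulated cells). Slc19a1, the reduced folate carrier, was at 261, 273 and 284 CPM in Batf3 stimulated cells and 22.5, 18.7 and 16.2 CPM in Batf3 non-stimulated cells. The control libraries were at 286, 282 and 294 CPM with stimulation and 30.1, 34.6 and 28.2 CPM without it. All stimulated libraries lay far above all non-stimulated ones, and the interaction was 0.62 ± 0.12, adjusted p = 0.00127. Slc5a6, which imports biotin and pantothenate, averaged 73.9 ± 0.655 CPM in Batf3 stimulated cells, 6.51 ± 0.797 CPM in Batf3 non-stimulated cells, 68.8 ± 0.501 CPM in control stimulated cells and 9.53 ± 0.946 CPM in control non-stimulated cells.

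Slc44a2, a choline-like carrier, was at 24.4, 26.04 and 28.03 CPM in Batf3 stimulated cells and 219.6, 212 and 209.8 CPM in Batf3 non-stimulated cells. Values in control cells were 44.7, 46.95 and 45.8 CPM with stimulation and 258, 263 and 252 CPM without it. The 4 groups did not overlap, and the log2 effect of Batf3 was −0.81 ± 0.07, adjusted p = 4.63e-19 in stimulated and −0.27 ± 0.04, adjusted p = 6.14e-10 in non-stimulated cells. Slc13a3, a sodium-coupled carrier of dicarboxylates, had, summed over 3 libraries, 552 counts in Batf3 stimulated against 2 counts in Batf3 non-stimulated cells, and 385 counts in control stimulated against 2 counts in control non-stimulated cells. Scaled to library size and TMM factor, the ratio was 319.8 in Batf3 cells (exact 95% interval 88.1 to 2647, counting error only) and 221 in control cells (60.8 to 1831). After stimulation it was at 11.98, 14.5 and 14.4 CPM in Batf3 and 8.83, 10.7 and 9.75 CPM in control cells (0.48 ± 0.12, adjusted p = 0.00169).

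Other members with large falls on stimulation were Slc14a1, which carries urea, at log2 changes of −3.69 ± 0.26 in Batf3 and −3.77 ± 0.23 in control cells, and the nucleotide sugar carrier Slc35d2, at −3.60 ± 0.24 in Batf3 and −2.88 ± 0.23 in control cells. Slc46a3, a lysosomal carrier, changed by −2.50 ± 0.22 in Batf3 and −2.78 ± 0.24 in control cells.

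The vector changed carriers less than stimulation did. In stimulated cells, 29 of the 159 members were higher with Batf3 and 39 lower (median log2 change −0.04), against a background of 18.7% in each direction and 37.3% in either among the 9339 genes (median −0.01). In non-stimulated cells, 27 were higher and 52 lower (median −0.08), against 19.3% higher, 28.9% lower and 48.2% in either direction (median −0.04). The 3 libraries of each vector did not overlap for 78 members in stimulated and 94 in non-stimulated cells, where the background was 47.3% in stimulated and 56.4% in non-stimulated cells. A log2 change of at least 1 was reached by 3 rising and 2 falling members in stimulated cells, and by 3 rising and no falling members in non-stimulated cells. Changes of this size were not counted over the 9339 genes. The balance of directions depended on scaling: with library sizes alone, 37 were higher and 32 lower in stimulated cells, and 39 higher and 36 lower in non-stimulated cells. In stimulated cells 18 were called higher with DESeq2, 18 higher and 43 lower without the filter on low counts, and 19 higher without control stimulated replicate 1.

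**Figure D4:**
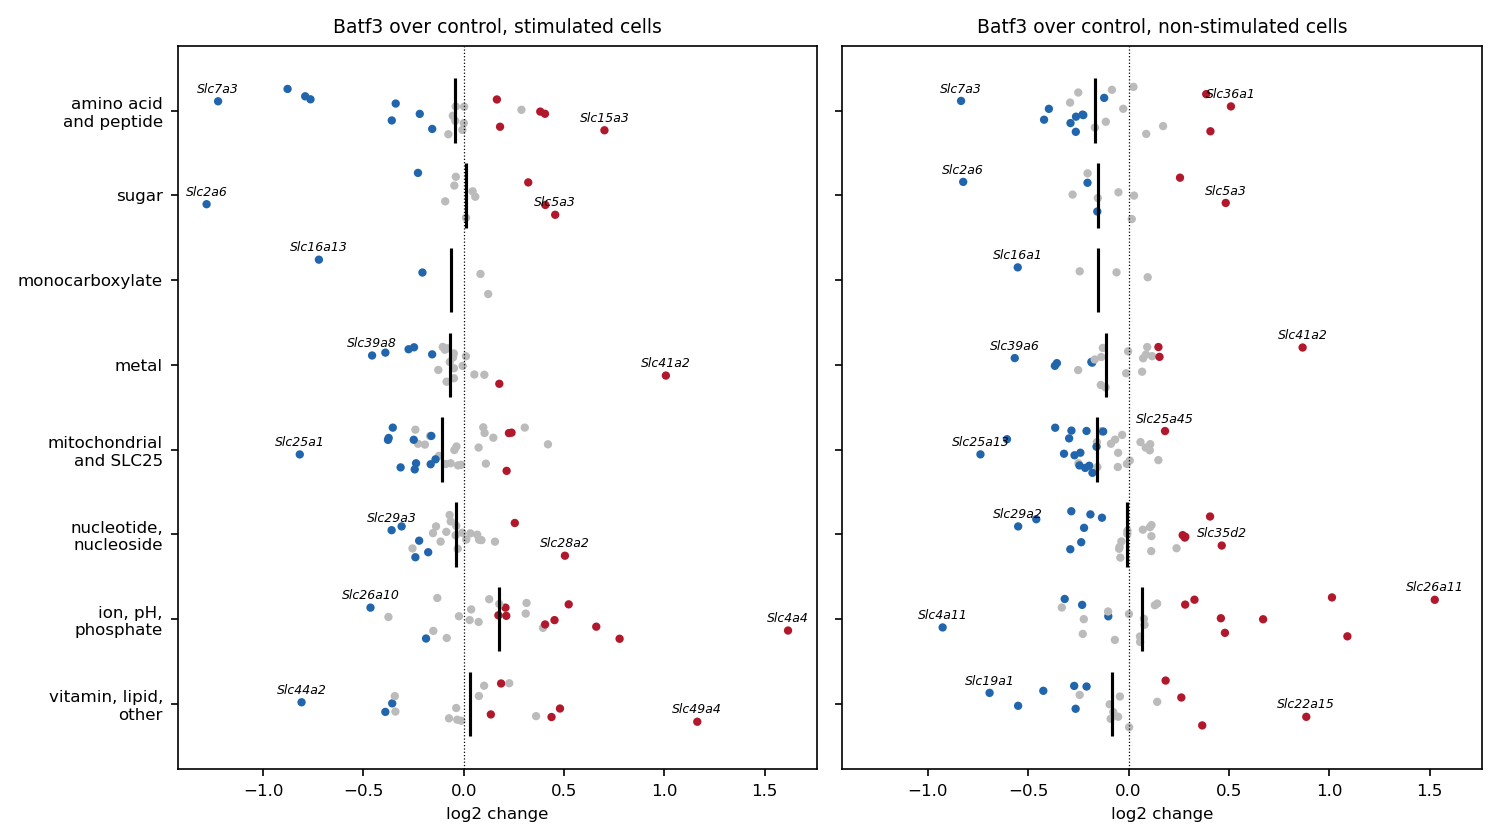
Log2 effect of the Batf3 vector (horizontal axis) on the carriers with a 12-library mean of at least 5 CPM, by class (rows), in stimulated (left) and non-stimulated cells (right); colours and bars are as in the plot of stimulation effects. The ion class reaches furthest to the right, with Slc4a4 at 1.62 in stimulated cells and Slc26a11 at 1.53 in non-stimulated cells, and Slc2a6 and Slc7a3 lie furthest to the left in stimulated cells.

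By class, more mitochondrial carriers were called lower than higher with Batf3: 11 of 32 were lower and 3 higher in stimulated cells, and 15 lower and 1 higher in non-stimulated cells. With library sizes alone these counts were 8 lower and 4 higher in stimulated cells, and 9 lower and 4 higher in non-stimulated cells. More ion carriers were called higher than lower: 9 of 24 were higher and 2 lower in stimulated cells, and 8 higher and 4 lower in non-stimulated cells. The background for both classes was 18.7% in each direction in stimulated cells, and 19.3% higher and 28.9% lower in non-stimulated cells. Across both cultures, whose comparisons share no library, 11 of the 159 members were higher in both and 24 lower in both. Of the 9339 genes, 9.32% were higher in both and 10.7% lower in both. Among the members 1 was higher without stimulation and lower with it (Slc17a9), and 3 were lower without and higher with it (Slc20a1, Slc38a1 and Slc39a14). Calls in opposite directions were not counted over the 9339 genes. Those higher in both were Slc12a2, Slc23a2, Slc26a11, Slc28a2, Slc36a1, Slc37a3, Slc41a2, Slc49a4, Slc4a4, Slc5a3 and Slc9a9. The 24 lower in both included the amino acid carriers Slc7a5, Slc3a2, Slc7a3, Slc6a6 and Slc16a10, the sugar carriers Slc2a1 and Slc2a6, Slc16a1, and the mitochondrial carriers Slc25a1, Slc25a3, Slc25a4, Slc25a5, Slc25a13, Slc25a22, Slc25a39 and Slc25a53. Of these, Slc25a4 lost its calls with library sizes alone in both cultures, and in stimulated cells without Batf3 stimulated replicate 2 (adjusted p = 0.0558), and Slc12a2 lost its call in non-stimulated cells without control non-stimulated replicate 3 (adjusted p = 0.0601) or Batf3 non-stimulated replicate 3 (adjusted p = 0.0617).

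Slc4a4, which moves sodium and bicarbonate together, had the largest rise with Batf3 in stimulated cells. It was at 27.01, 25.6 and 26.8 CPM in Batf3 stimulated cells and 13.1, 13.3 and 14.1 CPM in Batf3 non-stimulated cells. Control cells were at 8.30, 8.23 and 9.37 CPM with stimulation and 4.85, 6.76 and 7.42 CPM without it. Every Batf3 library of either culture lay above every control library, and the log2 effect of Batf3 was 1.62 ± 0.10, adjusted p = 3.71e-21 in stimulated and 1.09 ± 0.12, adjusted p = 2.61e-12 in non-stimulated cells. Slc26a11, an anion and sulfate carrier, was at 3.35, 3.26 and 3.69 CPM in Batf3 stimulated cells and 22.4, 20.1 and 19.8 CPM in Batf3 non-stimulated cells. In control cells, values were 2.21, 2.36 and 2.59 CPM with stimulation and 7.51, 7.76 and 6.36 CPM without it. The Batf3 non-stimulated libraries stood apart from all others, with a log2 effect of 1.53 ± 0.11, adjusted p = 2.43e-19. In stimulated cells the effect was 0.52 ± 0.20, adjusted p = 0.0364, and the call was lost without any 1 of the 6 stimulated libraries (adjusted p from 0.0531 to 0.123). It was also lost with DESeq2 (adjusted p = 0.0899) and without the filter on low counts (adjusted p = 0.100). Slc12a7, a potassium-chloride cotransporter, averaged 25.8 ± 2.23 CPM in Batf3 stimulated cells, 83.8 ± 4.33 CPM in Batf3 non-stimulated cells, 23.7 ± 1.71 CPM in control stimulated cells and 52.7 ± 1.64 CPM in control non-stimulated cells, with a Batf3 effect of 0.67 ± 0.05, adjusted p = 3.71e-17 in non-stimulated cells. Slc4a8, a sodium-driven chloride-bicarbonate exchanger, was also higher there, at 10.9 ± 1.04 CPM in Batf3 non-stimulated against 5.37 ± 0.626 CPM in control non-stimulated cells (1.01 ± 0.14, adjusted p = 8.19e-09).

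Promoter sequence was examined because BATF3 belongs to a family whose dimers bind AP-1 sites. Windows from 250 before to 50 after the transcription start (RefSeq, GRCm38.p6) were found for 129 of the 171 members, 171 windows in all. The AP-1 letters TGANTCA, read on both strands, occurred in 5.26% of the members' windows and in 7.81% of all 32851 windows of the table. The letters TGATGNAA, read from the C/EBP-ATF response element, occurred in 3.51% of members' and 3.97% of all windows, and the E-box CACGTG in 15.2% of members' and 7.15% of all windows. Members were chosen by expression and the windows of the table were not, so these shares are not a like comparison. Of the members higher with Batf3 in both cultures, 9 had windows, 12 in all, and AP-1 letters were in 2 of them, upstream of Slc49a4 and Slc9a9. Of those lower in both, 21 had windows, 27 in all, and AP-1 letters were in 1, upstream of Slc25a13. A match describes these letters only and is not a binding site. These 3 upstream stretches of 250 bases are shown, 5′ to 3′ toward the start, with AP-1 and TGATGNAA matches in capitals. They lie at chr16:35769371-35769620, minus strand (Slc49a4), chr9:94669642-94669891, plus strand (Slc9a9) and chr6:6217174-6217423, minus strand (Slc25a13).
Slc49a4: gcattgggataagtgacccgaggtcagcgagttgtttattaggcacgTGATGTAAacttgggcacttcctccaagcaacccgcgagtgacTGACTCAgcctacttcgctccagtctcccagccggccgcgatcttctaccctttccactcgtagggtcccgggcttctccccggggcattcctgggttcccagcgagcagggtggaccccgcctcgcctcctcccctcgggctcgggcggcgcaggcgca
Slc9a9: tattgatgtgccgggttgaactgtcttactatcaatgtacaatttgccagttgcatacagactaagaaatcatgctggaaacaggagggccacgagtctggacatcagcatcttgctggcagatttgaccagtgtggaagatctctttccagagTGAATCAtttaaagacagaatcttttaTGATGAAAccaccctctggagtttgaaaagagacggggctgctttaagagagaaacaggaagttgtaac
Slc25a13: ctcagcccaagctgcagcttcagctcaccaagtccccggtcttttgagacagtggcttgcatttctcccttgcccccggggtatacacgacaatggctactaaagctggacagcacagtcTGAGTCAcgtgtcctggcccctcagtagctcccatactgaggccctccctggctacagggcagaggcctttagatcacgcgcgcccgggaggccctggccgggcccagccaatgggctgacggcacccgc

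Upstream of both genes that were higher, the AP-1 letters begin at −160 (Slc49a4, TGACTCA) and −96 (Slc9a9, TGAATCA), counted in bases from the start. TGATGNAA matches begin at −203 (Slc49a4) and −69 (Slc9a9). In Slc25a13 the letters TGAGTCA begin at −130. Slc49a4, a carrier of lysosomal membranes, was at 3.65, 3.26 and 3.02 CPM in Batf3 stimulated cells and 8.10, 10.6 and 9.74 CPM in Batf3 non-stimulated cells. Control levels were 1.60, 1.37 and 1.45 CPM with stimulation and 6.24, 7.96 and 7.82 CPM without it. Batf3 stimulated libraries lay above control stimulated libraries, with a log2 effect of 1.16 ± 0.24, adjusted p = 5.06e-05. In non-stimulated cells the effect was 0.37 ± 0.13, adjusted p = 0.0173. The call was lost without control non-stimulated replicate 1 (adjusted p = 0.146), Batf3 non-stimulated replicate 2 (adjusted p = 0.135) or Batf3 non-stimulated replicate 3 (adjusted p = 0.0608), and with DESeq2 (adjusted p = 0.141). Slc9a9, a sodium-proton exchanger of endosomes, was at 3.50, 1.93 and 3.47 CPM in Batf3 stimulated cells and 18.5, 19.3 and 20.1 CPM in Batf3 non-stimulated cells. The control values were 1.37, 1.60 and 2.21 CPM with stimulation and 12.6, 16.2 and 12.7 CPM without it. Its Batf3 effect was 0.48 ± 0.10, adjusted p = 9.02e-05 in non-stimulated cells. In stimulated cells, where libraries of both vectors overlapped, it was 0.78 ± 0.25, adjusted p = 0.00971, and the call did not hold without replicate 1 of control stimulated cells (adjusted p = 0.0735), Batf3 stimulated replicate 1 (adjusted p = 0.0710) or Batf3 stimulated replicate 3 (adjusted p = 0.0624). For Slc25a13 the Batf3 effect was −0.37 ± 0.11, adjusted p = 0.00575 in stimulated and −0.74 ± 0.15, adjusted p = 3.20e-05 in non-stimulated cells.

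The interaction is the difference between the log2 effects of Batf3 in both cultures, stimulated minus non-stimulated. By it, 29 were called above 0 and 15 below (median 0.04), against 19.9% above, 8.51% below and 28.5% in either direction of the 9339 genes (median 0.05). Slc4a2, a chloride-bicarbonate exchanger, was the 1 member called in opposite directions on stimulation in the 2 vectors (not counted over the 9339 genes). It was at 53.6, 51.5 and 61.5 CPM in Batf3 stimulated cells and 44.5, 48.4 and 44.6 CPM in Batf3 non-stimulated cells. Levels in control cells were 35.1, 34.8 and 35.6 CPM with stimulation and 42.1, 45.8 and 44.4 CPM without it. Its log2 change was 0.28 ± 0.06, adjusted p = 1.41e-05 in Batf3 and −0.33 ± 0.06, adjusted p = 3.88e-06 in control cells. The interaction was 0.60 ± 0.09, adjusted p = 5.25e-08. With library sizes alone, the change in Batf3 cells was 0.06 and not called. Slc17a9, a vesicular nucleotide carrier, was at 30.1, 31.3 and 32.01 CPM in Batf3 stimulated cells and 55.6, 56.1 and 57.3 CPM in Batf3 non-stimulated cells. The controls were at 39.1, 41.6 and 41.7 CPM with stimulation and 41.2, 49.1 and 50.5 CPM without it. Batf3 libraries lay above control libraries without stimulation (0.26 ± 0.06, adjusted p = 9.99e-05) and below them with it (−0.39 ± 0.07, adjusted p = 2.08e-06). Slc20a1, a phosphate importer, averaged 252 ± 2.79 CPM in Batf3 stimulated cells, 192 ± 7.58 CPM in Batf3 non-stimulated cells, 218 ± 6.95 CPM in control stimulated cells and 206 ± 7.83 CPM in control non-stimulated cells, with an interaction of 0.31 ± 0.05, adjusted p = 4.66e-07.

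The largest interactions above 0 included Slc4a11, an ion carrier, at 7.39 ± 0.582 CPM in Batf3 stimulated cells, 2.47 ± 0.346 CPM in Batf3 non-stimulated cells, 7.24 ± 0.969 CPM in control stimulated cells and 4.71 ± 0.205 CPM in control non-stimulated cells (0.96 ± 0.23, adjusted p = 0.000926). Slc15a3, which moves peptides and histidine out of lysosomes, averaged 25.1 ± 1.87 CPM in Batf3 stimulated cells, 2.47 ± 0.251 CPM in Batf3 non-stimulated cells, 15.5 ± 1.51 CPM in control stimulated cells and 2.43 ± 0.310 CPM in control non-stimulated cells (0.68 ± 0.22, adjusted p = 0.0198), and 28.1% of its exon bases also belong to Tmem132a on the opposite strand. Slc9a7, a sodium-proton exchanger of the trans-Golgi network, had an interaction of 0.74 ± 0.27, adjusted p = 0.0402, and the choline carrier Slc44a1 one of 0.68 ± 0.20, adjusted p = 0.0068. Below 0, Slc39a8, an importer of zinc and manganese, averaged 7.59 ± 0.514 CPM in Batf3 stimulated cells, 12.6 ± 1.08 CPM in Batf3 non-stimulated cells, 10.4 ± 0.357 CPM in control stimulated cells and 12.03 ± 1.11 CPM in control non-stimulated cells (−0.52 ± 0.16, adjusted p = 0.0101). Of 12 refits that each left out 1 library, the call was lost in 8 for Slc9a7, 6 for Slc49a4, 5 for Slc15a3 and 1 for Slc44a1, and in none for Slc4a11, Slc5a6, Slc26a11, Slc12a7, Slc17a9, Slc44a2 and Slc39a8. Without the filter on low counts, Slc9a7, Slc49a4 and Slc15a3 lost the call. With DESeq2 Slc9a7 and Slc49a4 lost it, and with library sizes alone Slc9a7 did.

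**Figure D5:**
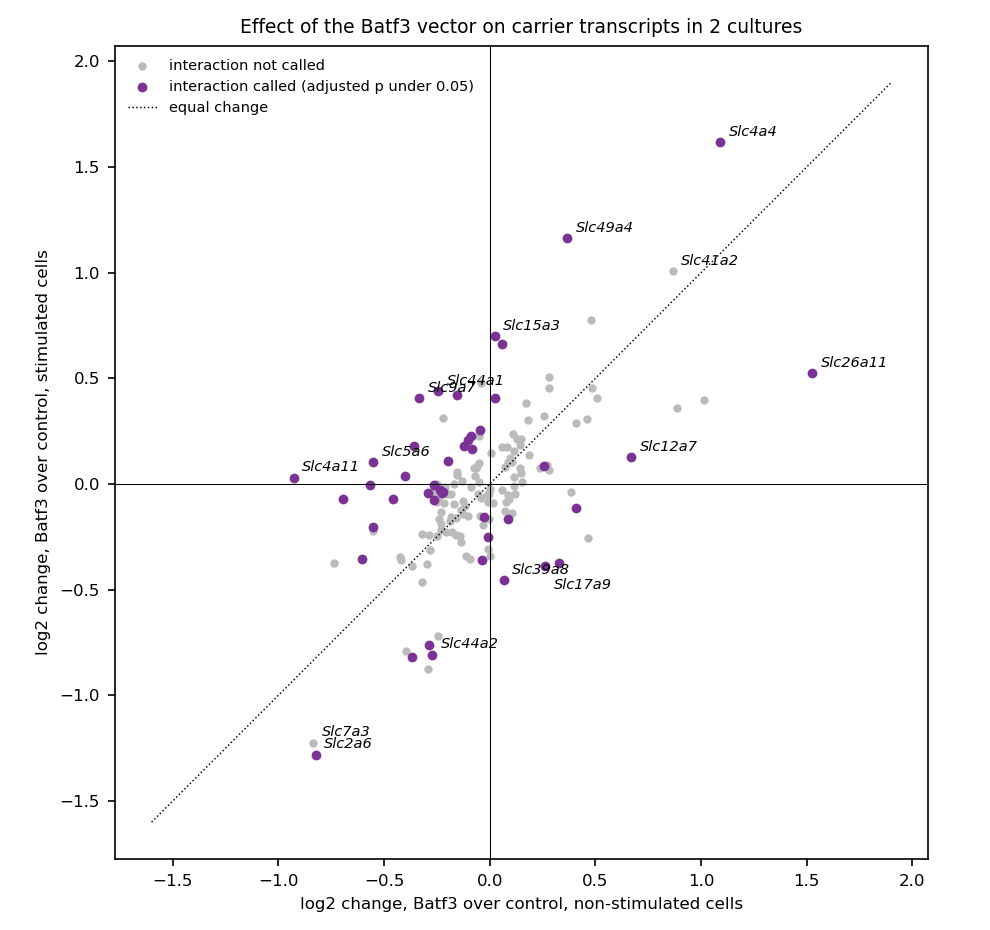
Log2 effect of Batf3 in stimulated cells (vertical axis) against that in non-stimulated cells (horizontal axis) for the 159 members, with members called in the interaction marked. Slc26a11 lies at 0.52 in stimulated and 1.53 in non-stimulated cells, Slc4a4 at 1.62 in stimulated and 1.09 in non-stimulated cells, and Slc17a9 lies on opposite sides of 0.

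Genes outside the family that work with these carriers were counted from a list of 35, all tested. On stimulation 17 rose and 15 fell in Batf3 cells, and 18 rose and 14 fell in control cells (median log2 changes 0.06 in Batf3 and 0.25 in control cells). Among the 9339 genes 89.8% were called in Batf3 and 88.4% in control cells. With Batf3, 5 were higher and 10 lower in stimulated cells and 10 higher and 7 lower in non-stimulated cells (medians −0.02 in stimulated and 0.02 in non-stimulated cells), where 37.3% of the 9339 genes were called in stimulated and 48.2% in non-stimulated cells. Txnip, which promotes removal of glucose carriers from the cell surface, averaged 57.3 ± 3.73 CPM in Batf3 stimulated cells, 609 ± 10.8 CPM in Batf3 non-stimulated cells, 63.5 ± 1.46 CPM in control stimulated cells and 552 ± 5.70 CPM in control non-stimulated cells. Hmox1, which breaks down heme, averaged 37.1 ± 3.12 CPM in Batf3 stimulated cells, 10.4 ± 0.443 CPM in Batf3 non-stimulated cells, 38.8 ± 2.44 CPM in control stimulated cells and 5.66 ± 0.451 CPM in control non-stimulated cells. Nedd4, a ubiquitin ligase that acts on membrane carriers, had log2 effects of Batf3 of −0.55 in stimulated and −0.68 in non-stimulated cells.

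A further 12 members had a mean under 5 CPM over the 12 libraries, having met the minimum through some groups only, and are given by their values alone. The widest differences between groups were those of Slc30a3, a zinc carrier, at 3.78 ± 0.389 CPM in Batf3 stimulated cells, 0.278 ± 0.162 CPM in Batf3 non-stimulated cells, 7.36 ± 0.832 CPM in control stimulated cells and 0.287 ± 0.153 CPM in control non-stimulated cells. Slc9b2, a sodium-proton exchanger, was at 5.86 ± 0.359 CPM in Batf3 stimulated cells, 0.256 ± 0.000789 CPM in Batf3 non-stimulated cells, 5.94 ± 1.03 CPM in control stimulated cells and 0.575 ± 0.139 CPM in control non-stimulated cells. Slc25a27, a mitochondrial carrier of the uncoupling protein group, was at 0.592 ± 0.265 CPM in Batf3 stimulated cells, 6.10 ± 0.572 CPM in Batf3 non-stimulated cells, 0.457 ± 0.275 CPM in control stimulated cells and 3.12 ± 0.629 CPM in control non-stimulated cells. The others were Slc15a2, Slc17a5, Slc25a42, Slc27a1, Slc31a2, Slc35e4, Slc38a6, Slc39a13 and Slc6a8, with group means between 0.716 and 7.65 CPM. In total 122 members reached 5 CPM in all 4 groups, 7 in 3, 35 in 2 and 7 in 1. Just inside the minimum, by counts over library totals, the highest group mean was 5.08 CPM for Slc35e4 and 5.41 CPM for Slc15a2; just outside it was 4.75 CPM for Slc2a8 and 4.52 CPM for Slc23a3.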

How the data were processed

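Polyadenylated RNA was sequenced in 12 libraries, 3 technical replicates in each of 4 groups, from 100 ng of total RNA each with a stranded kit, per the labels' protocols. The deposited values were raw read counts per gene, made by the authors with STAR 2.7 and featureCounts on GRCm38, per the submitters' processing notes. The annotation release, strand setting and handling of reads with several matches are missing from the sources used here.

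Members and lists were chosen with earlier results of these data known. Counts were tested with edgeR 4.0.16 (R 4.3.3, limma 3.58.1): default filter on low counts, TMM scaling, group means over all 12 libraries, robust quasi-likelihood fit and Benjamini-Hochberg adjustment over 15702 genes. SEs come from the fitted model, on the log2 scale. The method was tested on simulated counts. Membership, the 12-library mean, the cell type markers and the floor used CPM by library totals. Other printed CPM are TMM-scaled unless stated. Genes with a 12-library mean of at least 5 CPM were named if called and among the 10 largest rises or falls of a contrast. Libraries of the groups also had to show no overlap. For the interaction the 6 largest called in each direction were named, without the rule on overlap. Members on a list of well-known carriers were named too, and members under that mean were given by their values alone. Exon lengths and overlaps came from GENCODE M21, and promoters from RefSeq GRCm38.p6.

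Total counts of 14211564 to 14468231 put the floor of 3 counts at 0.207 to 0.211 CPM. All replicate pairs differed beyond sampling noise and were counted separately. Alternatives were scaling by library sizes alone or by DESeq2's size factors, DESeq2 1.42.0, no filter, only the groups compared, a replicate block, and leaving out each library. Same-numbered libraries did not deviate together (r from −0.0403 to 0.0231), and the main fit did not pair them. Deviations between technical replicates cannot show whether equal numbers share a mouse or culture. Results for a few genes are not reported here, though counts and sums over members and lists include them.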

Additional observations from a re-analysis of the deposited data

Results flagged for a closer look

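For 11 carriers the effect of Batf3 differed between stimulated and non-stimulated cells by a test of the difference itself, the interaction in edgeR's quasi-likelihood fit, and these were among the largest differences called. They were taken by size from the 159 members, of which 29 were called above 0 and 15 below. Of the 9339 genes, 19.9% were called above 0, 8.51% below and 28.5% in either direction. The members were thus close to that background. The log2 effect of Batf3 in stimulated cells minus that in non-stimulated cells was 0.96 for Slc4a11, 0.80 for Slc49a4, 0.74 for Slc9a7, 0.68 for Slc44a1, 0.68 for Slc15a3 and 0.65 for Slc5a6. It was −1.0 for Slc26a11, −0.65 for Slc17a9, −0.54 for Slc12a7, −0.54 for Slc44a2 and −0.52 for Slc39a8. Not all of these calls held under the alternatives. That of Slc9a7 was lost with library sizes alone (adjusted p = 0.0530), without the filter (0.0753) and with DESeq2 (0.118). Slc49a4 lost its call without the filter (0.0667) and with DESeq2 (0.0747), and Slc15a3 without the filter (0.0602). Leaving out 1 library lost calls of these 3 and of Slc44a1.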

How the results depend on the processing

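Most values kept their side of the threshold. Of the values of named carriers under the alternatives, 5305 did so, 166 lost a call, 49 gained one and 3 turned sign with a call involved. Turns of sign without a call in either setting were not counted apart and are among the 5305. Those 3 arose with library sizes alone, and were the stimulation effects of Slc2a1 in Batf3 cells (−0.094), of Slc2a1 in control cells (−0.042) and of Slc2a3 in control cells (−0.042). That setting moved the median of all tested genes by 0.07 for Batf3 in non-stimulated cells, 0.05 for Batf3 in stimulated cells, −0.22 for stimulation of Batf3 cells and −0.19 for stimulation of control cells. The median log2 changes of the members were less stable. Under the alternatives 38 of their values stayed within the SD between libraries and 27 moved beyond it. Of those 27, 5 arose with library sizes alone and 4 without the filter. Counts of calls by class stayed within a ratio of 1.5 in 1094 cases and moved further in 76. The 29 members called higher with Batf3 in stimulated cells became 18 with DESeq2 and 18 without the filter. Leaving out 1 library gave 19 to 26 higher and 35 to 40 lower there, and 20 to 25 higher and 48 to 50 lower in non-stimulated cells. On stimulation it gave 79 to 83 higher and 61 to 63 lower in Batf3 cells, 79 to 83 higher and 59 to 63 lower in control cells, and for the interaction 20 to 29 above 0 and 10 to 18 below. With the replicate block, counts were 27 higher and 38 lower for Batf3 in stimulated cells, 27 and 52 in non-stimulated cells, 81 and 63 for stimulation of Batf3 cells, 82 and 61 for control cells, and 28 and 15 for the interaction. The cause of these shifts was not tested. Technical replicates limit all p-values to the spread between libraries, and members near the floor of 3 counts carry wide errors.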
